A study of Homo sapiens with 14 samples.

Results

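The nuclear genes that encode the subunits of the 5 oxidative phosphorylation complexes were examined in OVCAR-3 cells and in sublines of them that resist PHA-533533, an inhibitor of the cell cycle kinase CDK2. Genes were chosen by a rule on symbols, set with earlier results of these data known. A gene entered if a row of the array table named it and no other gene, and if its symbol began with NDUFA, NDUFB, NDUFC, NDUFS, NDUFV, UQCR or ATP5, began with COX and a digit between 4 and 8, or was one of SDHA, SDHB, SDHC and SDHD. Complex I assembly factors of the NDUFAF series, UQCRFS1, ATP5S and pseudogenes were left out. The rule found 80 of the 18398 genes measured, and where a gene had several rows the row of highest mean signal stood for it. Complex I had 34 of them, complex II 3, complex III 7, complex IV 17 and complex V 16. The remaining 3 met the letters of the rule without being subunits: ATP5IF1, an inhibitor of the ATP synthase, ATP5MGL, a copy of ATP5MG, and NDUFV1-DT, a transcript that diverges from NDUFV1. They were kept in the counts and put in no complex.

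The 14 arrays all came from OVCAR-3, a long established line of human ovarian carcinoma, and its derivatives. The selected group held resistant sublines R1, R3, R5, R6 and R7 at passage 5, grown in 4 µM PHA-533533 (n = 5). The stable group held the same 5 sublines at passage 10 or later, grown with 0 µM inhibitor (n = 5). The parental group held 4 replicates of the starting cells in medium with 0 µM inhibitor. Each subline was derived on its own and gave 1 array per condition, so a subline's own spread was not measured, and inhibitor and passage number changed together between selected and stable cells. Whether the 4 parental replicates grew as separate cultures is not stated, and each p-value is set against whatever spread these arrays show, technical spread included.

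As background, complexes I to IV of the mitochondrial inner membrane pass electrons from NADH and succinate to oxygen and complexes I, III and IV pump protons as they do so. Complex V, the ATP synthase, uses the returning protons to make ATP. Complex II is the succinate dehydrogenase of the tricarboxylic acid cycle and the only complex with no subunit encoded by mitochondrial DNA. Several complex IV subunits have alternative isoforms that are typical of muscle, lung or testis. The array measured RNA, and none of the 13 subunits encoded by mitochondrial DNA had a value, so only the nuclear side of each complex was seen.

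The deposited values ran from 4.34 to 14.9 on a log2 scale. Epithelial and ovarian carcinoma markers averaged 10.7 to 11.3 over the 14 arrays, against 6.67 to 7.03 for lists of fibroblast, leukocyte and endothelial genes, of which none was called in any of the comparisons of groups. For scale, the mean of 337 olfactory receptor genes, which epithelial cells should not use, was 6.34 ± 0.21 in selected, 6.50 ± 0.21 in stable and 6.42 ± 0.23 in parental cells (SD, n = 5, 5 and 4). This mean was lower in the selected than in the stable array of every subline, by 0.03 to 0.38, with the widest gap in R7. Its part in the differences between selected and stable cells was not tested beyond the fits with it as a covariate that are given with the other settings. In bulk RNA, less RNA per cell and fewer expressing cells cannot be told apart.

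In inhibitor, few subunit genes moved far, and those that passed the test were higher. Against parental cells, 6 of 80 genes rose in selected cells and none fell: NDUFS3, NDUFAB1 and NDUFA12 of complex I, SDHA and SDHD of complex II, and ATP5MG of complex V. This is 7.5% of the 80 genes, beside 6.92% of all genes (5.03% higher and 1.89% lower), where a call is an adjusted p under 0.05 in limma. The share called was therefore close to that of genes at large. Genes above the 40th percentile of mean signal, which include 72 of the 80, had 9.99% called. After quantile normalisation the split was 4 higher and 1 lower among the 80 genes and 989 higher and 721 lower among all genes, against 926 higher and 347 lower without it. In stable cells none of the 80 genes was called against parental cells by limma, beside 0.00544% of all genes, which is 1 gene. At an unadjusted p under 0.05 there were 6 of 80 and 1120 of 18398. In simulated data the test of stable against parental cells recovered 6% of changes of 0.3 and 62% of 0.5. That of selected against parental cells recovered 8% and 66%. Small changes in stable cells could therefore be missed.

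Between selected and stable cells of the same sublines, 4 of 80 genes were higher with the inhibitor and none was lower: NDUFS3, UQCRC2 of complex III, COX6A1 of complex IV, and ATP5MG. This is 5% of the 80 genes, beside 2.16% of all genes (1.54% higher and 0.614% lower) and 3.19% of genes above the 40th percentile. With the subline as a block, NDUFAB1 and SDHA joined these 4, making 6 of 80 higher and none lower, beside 4.92% of all genes (3.61% higher and 1.31% lower). Of 11039 genes above that percentile, 581 were higher and 196 lower with the block. None of the 80 was called without selected R3, selected R7, stable R5 or stable R7, where calls over all genes also dropped, to 86, 97, 104 and 102, against 397 with all arrays. Without both arrays of R7 no gene of 18398 was called, with 1756 at an unadjusted p under 0.05. Without stable R6 ATP5MG alone of the 80 was called, with 152 calls over all genes. Without stable R1 11 of the 80 were called, with 962 over all genes. Leaving out 1 array, the differences stayed at 0.43 to 0.51 for NDUFS3, 0.34 to 0.40 for UQCRC2, 0.34 to 0.39 for COX6A1 and 0.38 to 0.47 for ATP5MG. The split over all genes was 284 higher and 113 lower, 313 higher and 267 lower after quantile normalisation, and 177 higher and 115 lower after median centring.

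**Figure D1:**
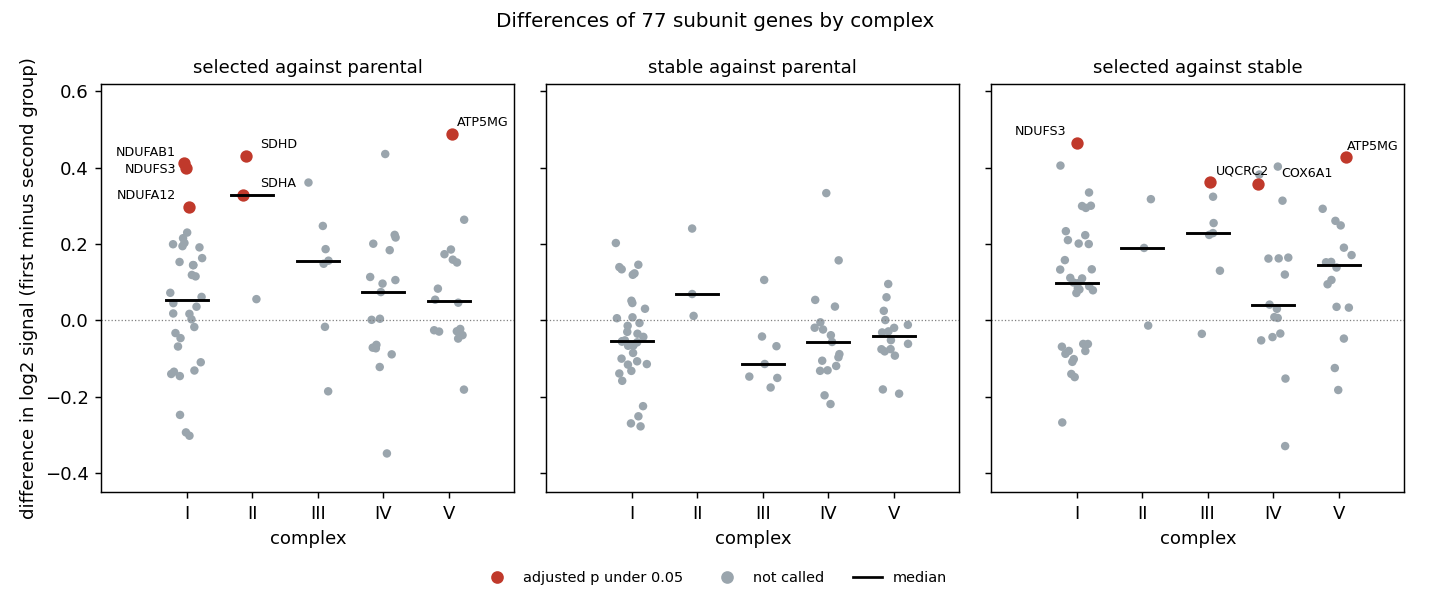
Difference in log2 signal of the 77 subunit genes, by complex, for selected minus parental, stable minus parental and selected minus stable cells. Red points passed an adjusted p under 0.05, grey points did not, and bars are medians; 6, 0 and 4 genes are red.

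The median difference of the 80 genes from parental cells was 0.06 in selected cells and -0.05 in stable cells, on the log2 scale. Over all genes these medians were -0.01 and 0.00, and over genes above the 40th percentile of mean signal 0.03 and -0.01. Between selected and stable cells the median was 0.11 for the 80 genes, 0.00 for all genes and 0.05 for genes above that percentile. In that comparison 57 of 80 genes (71.25%) lay above 0, beside 50.9% of all genes and 61.5% of genes above that percentile. After quantile normalisation the medians of the 80 genes were 0.0044 from parental cells in selected cells, with 41 of 80 above 0, and 0.07 between selected and stable cells. The stable median came to -0.02 without parental replicate 1. As the same parental arrays serve both comparisons with parental cells, those values are given side by side only.

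Promoters of subunit genes are known to carry sites of NRF1, of ETS family factors and of YY1, so their letters were searched in the RefSeq promoters (GRCh38.p14, 250 bases before to 50 after the start). A promoter was found for 68 of the 80 genes. The NRF1 letters, the half-site GCGCA followed at once by its reverse complement TGCGC, stood in 4 of the 68 promoters (5.88%), beside 1.36% of 27305 promoters. The ETS letters CCGGAAG stood in 19 (27.9%), beside 10.7%, and the YY1 letters AAGATGGC in 10 (14.7%), beside 3.03%. The 27305 promoters were not matched to the 68 for base content or expression. Both strands were read, so that CCGGAAG is also found as CTTCCGG and AAGATGGC as GCCATCTT. Of the called genes, NDUFAB1, NDUFA12, SDHA and UQCRC2 had no match, and whether each had a promoter entry is not given here. ATP5MG held the ETS letters, as CTTCCGG, at offset 1 to 7 from the start, and its window is not shown. NDUFS3, SDHD and COX6A1 carried such letters before the start, and these windows are shown, as they place the motifs of 3 of the called genes. The capitals mark the ETS letters, and in SDHD the NRF1 letters first. A match is a description of the letters and not a bound site. The windows are chr11:47578957-47579012, chr11:112086748-112086817 and chr12:120438082-120438112, all on the plus strand.
NDUFS3: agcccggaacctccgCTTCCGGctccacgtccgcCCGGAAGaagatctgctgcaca
SDHD: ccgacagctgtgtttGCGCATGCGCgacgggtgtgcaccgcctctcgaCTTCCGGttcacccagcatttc
COX6A1: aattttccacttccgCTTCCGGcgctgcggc
NDUFS3 held the ETS letters on both strands within one window, and SDHD alone of these 3 held the NRF1 letters.

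In complex I, NDUFS3 was higher with the inhibitor against both other groups. It encodes a core subunit of the arm that takes electrons from NADH. Its signal was 11.33, 11.38, 11.26, 11.11 and 11.23 in selected R1, R3, R5, R6 and R7, 10.96, 10.98, 10.66, 10.74 and 10.66 in the stable arrays of the same sublines, and 10.98, 10.98, 10.83 and 10.67 in parental cells. Every selected array lay above every stable and every parental array, and stable and parental arrays overlapped. The mean was 11.26 ± 0.10 in selected and 10.86 ± 0.15 in parental cells (SD, n = 5 and 4), a difference of 0.40 ± 0.09 (SE, 1.32-fold, adjusted p = 0.020). Against the stable mean of 10.80 ± 0.16 (n = 5) the difference was 0.46 ± 0.09 (1.38-fold, adjusted p = 0.026). The call against parental cells was lost without parental replicate 4 (0.33, adjusted p = 0.074).

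NDUFAB1 and NDUFA12 were the other complex I genes that rose against parental cells. NDUFAB1 encodes the mitochondrial acyl carrier protein, which also serves fatty acid synthesis in mitochondria. Its signal was 9.79, 9.62, 9.64, 9.66 and 9.85 in selected R1 to R7, 9.50, 9.51, 9.07, 9.16 and 9.29 in stable R1 to R7, and 9.57, 9.36, 9.27 and 8.99 in parental cells. The selected arrays lay above the others, while stable R1 and R3 and parental replicate 1 came closest. The difference was 0.41 ± 0.11 from parental cells (1.33-fold, adjusted p = 0.043), and 0.41 ± 0.10 from stable cells, where the adjusted p was 0.055 without and 0.037 with the subline block. The call against parental cells was lost in 12 of 18 other settings. NDUFA12 encodes an accessory subunit of the same arm. It averaged 12.42 ± 0.08 in selected, 12.26 ± 0.05 in stable and 12.12 ± 0.11 in parental cells. It differed by 0.30 ± 0.08 between selected and parental cells (adjusted p = 0.038), a call lost in 9 of 18 other settings, and by 0.16 ± 0.06 between selected and stable cells (adjusted p = 0.24). It was the only one of the 80 genes whose stable arrays, the lowest at 12.22, all lay above its parental arrays, the highest at 12.21.

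**Figure D2:**
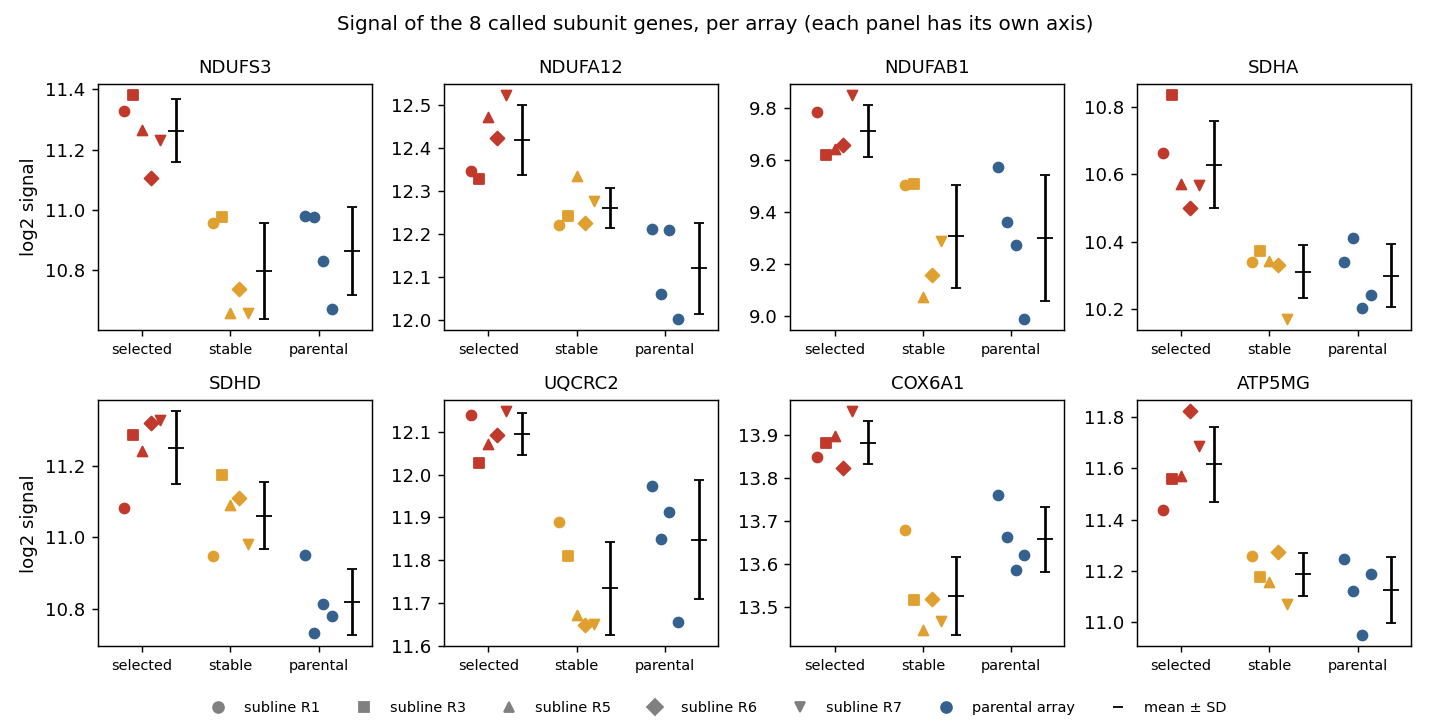
Log2 signal of the 8 subunit genes called in a comparison of groups, in every selected, stable and parental array. Points are arrays (marker shapes give the subline) and black bars are group means ± SD; for 6 of the 8, all but NDUFA12 and SDHD, the 5 selected arrays sit above both other groups.

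All 6 core subunits measured (NDUFV1, NDUFV2, NDUFS1, NDUFS3, NDUFS7 and NDUFS8) had a mean difference above 0 between selected and stable cells, from 0.13 to 0.46, and 1 of the 6 was called. NDUFV2 is an exception by row: its other row, which stood among genes of its own chromosome, differed by -0.11 between selected and stable cells, so that with it 5 of 6 lay above 0. From parental cells the 6 differed by 0.02 to 0.40 in selected cells, -0.07 to 0.32 after quantile normalisation with 4 of 6 above 0. In stable cells they differed by -0.28 to -0.01, where the other NDUFV2 row differed by 0.15. NDUFS1, the largest iron-sulfur subunit, was at 9.69 to 9.94 in selected arrays, 9.25 to 9.86 in stable ones and 9.64 to 9.99 in parental ones, so the groups overlapped. Its stable arrays differed from parental by -0.28 ± 0.12 (adjusted p = 0.76), next to NDUFB9 at -0.27 ± 0.10 (adjusted p = 0.69) and NDUFA6 at -0.25 ± 0.10 (adjusted p = 0.70). None of these 3 passed the test.

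NDUFB1, an accessory subunit of complex I, had its selected arrays below the other groups without passing the test. It was 8.52, 8.22, 8.60, 8.60 and 8.55 in selected R1 to R7, against 8.62 to 8.93 in stable and 8.64 to 8.90 in parental arrays. The differences were -0.30 ± 0.09 from parental (adjusted p = 0.079) and -0.27 ± 0.09 from stable cells (adjusted p = 0.16). NDUFB8 was 10.96 to 11.09 in selected arrays, 11.04 to 11.23 in stable ones and 11.15 to 11.37 in parental ones, with a difference of -0.25 ± 0.07 between selected and parental cells (adjusted p = 0.059). NDUFB8 was called lower after quantile normalisation (-0.31, adjusted p = 0.029). NDUFA8, with a difference above 0, was 10.01 to 10.21 in selected arrays, 9.62 to 10.02 in stable ones and 9.72 to 10.00 in parental ones, and differed by 0.30 ± 0.08 between selected and stable cells (adjusted p = 0.089). The 34 complex I genes spanned -0.30 to 0.41 between selected and parental cells, with a median of 0.05, 3 called higher and none lower.

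In complex II, SDHA and SDHD rose in selected against parental cells, and neither was called between selected and stable cells without the subline block. SDHA encodes the flavoprotein that oxidises succinate. It was 10.66, 10.84, 10.57, 10.50 and 10.57 in selected R1 to R7, 10.34, 10.37, 10.34, 10.33 and 10.17 in stable R1 to R7, and 10.34, 10.41, 10.20 and 10.24 in parental cells. Every selected array lay above every other array, and stable and parental arrays shared a range. The difference from parental cells was 0.33 ± 0.08 (1.26-fold, adjusted p = 0.038), a call lost in 8 of 18 other settings. From stable cells it was 0.32 ± 0.08, with an adjusted p of 0.057 without and 0.043 with the subline block.

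SDHD encodes a membrane anchor of the complex. Its signal was 11.08, 11.29, 11.24, 11.32 and 11.33 in selected R1 to R7, 10.95, 11.17, 11.09, 11.11 and 10.98 in stable R1 to R7, and 10.95, 10.73, 10.81 and 10.78 in parental cells. The selected arrays lay above parental, and the stable arrays lay between, overlapping both. SDHD rose by 0.43 ± 0.08 against parental cells (1.35-fold, adjusted p = 0.0082), and this call held in all 18 other settings. Its stable difference of 0.24 ± 0.08 had an adjusted p of 0.53, and the difference between selected and stable cells was 0.19 ± 0.07 (adjusted p = 0.22). SDHC, the other anchor, differed by 0.06 ± 0.07 between selected and parental cells and by -0.01 ± 0.06 between selected and stable cells, and was called in no comparison.

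The row of SDHD may not read the gene alone. Row numbers of this array run by chromosome: for 98.4% of 19115 rows, the 10 rows of nearest number were mostly genes of the same chromosome. The kept row of SDHD, a gene of chromosome 11, stood among 10 genes of chromosome 1, and RefSeq lists 7 SDHD pseudogenes. A second SDHD row stood among 10 genes of chromosome 11 and averaged 10.30 ± 0.12 in selected, 10.18 ± 0.09 in stable and 9.97 ± 0.11 in parental cells. With that row the difference between selected and parental cells was 0.33 ± 0.08 (adjusted p = 0.039). The kept rows of SDHC, NDUFV2 and ATP5MK likewise stood among genes of other chromosomes, and with their other rows the counts of called genes were again 6, 0 and 4, while the differences of NDUFV2 between selected and stable cells changed sign as given above. RefSeq lists a pseudogene for 46 of the 80 genes, among them 8 for ATP5MG, 6 for COX6A1, 4 for SDHA, 1 each for NDUFA12, NDUFAB1 and UQCRC2, and none for NDUFS3.

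In complex III, the core protein UQCRC2 was higher in selected than in stable cells. It was 12.14, 12.03, 12.07, 12.09 and 12.15 in selected R1 to R7, 11.89, 11.81, 11.67, 11.65 and 11.65 in stable R1 to R7, and 11.97, 11.85, 11.91 and 11.65 in parental cells. The selected arrays lay above both other groups, and stable and parental arrays overlapped. The difference was 0.36 ± 0.07 from stable cells (1.28-fold, adjusted p = 0.026) and 0.25 ± 0.08 from parental cells (adjusted p = 0.083). UQCRC1, the other core protein, differed by 0.22 ± 0.09 between selected and stable cells (adjusted p = 0.26) and by 0.16 ± 0.07 between selected and parental cells (adjusted p = 0.20), where its arrays did not overlap. The hinge protein gene UQCRH was 7.24 to 7.53 in selected arrays, against 6.96 to 7.24 in stable ones, a difference of 0.32 ± 0.08 (adjusted p = 0.058), and its stable arrays differed from parental by -0.18 ± 0.08 (adjusted p = 0.82).

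UQCRB varied between selected arrays, with an SD of 0.31, against 0.07 in both stable and parental cells. This gene, whose product binds ubiquinone, was 7.47, 7.33, 6.91, 6.70 and 7.17 in selected R1 to R7, against 6.66 to 6.82 in parental arrays, and differed by 0.36 ± 0.14 (adjusted p = 0.15). R1 and R3 stood highest and R6 lay within the parental range. UQCR10 differed by 0.23 ± 0.09 between selected and stable cells (adjusted p = 0.21). UQCRQ differed from parental cells by -0.19 ± 0.08 in selected and -0.15 ± 0.08 in stable cells (adjusted p = 0.21 and 0.86).

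Complex IV had 1 called gene, COX6A1, the isoform of subunit 6A found in most tissues. It was 13.85, 13.88, 13.90, 13.82 and 13.96 in selected R1 to R7, 13.68, 13.52, 13.45, 13.52 and 13.47 in stable R1 to R7, and 13.76, 13.66, 13.59 and 13.62 in parental cells. The selected arrays lay above both other groups, and stable R1 was the highest stable array. COX6A1 was higher by 0.36 ± 0.06 in selected than in stable cells (1.28-fold, adjusted p = 0.022), and differed by 0.22 ± 0.07 from parental cells (adjusted p = 0.069). A second COX6A1 row, which stood among genes of chromosome 6 where the gene itself is on chromosome 12, differed by 0.25 ± 0.07 between selected and stable cells (adjusted p = 0.091 over 19148 rows).

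COX5A and COX6C differed in the same direction between selected and stable cells, by 0.31 ± 0.08 (adjusted p = 0.061) and 0.40 ± 0.11 (adjusted p = 0.083). Neither passed, though for both genes all selected arrays lay above all stable arrays. COX6C was 9.97, 10.00, 9.97, 10.32 and 10.28 in selected R1 to R7 and 9.81, 9.90, 9.40, 9.73 and 9.69 in stable R1 to R7, against 9.85 to 10.00 in parental cells. COX7C, a small structural subunit, had a selected mean below the parental one, with arrays at 9.69 to 10.31 against 10.26 to 10.43 in parental cells (-0.35 ± 0.12, adjusted p = 0.11).

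Of the complex IV genes, 6 are isoforms tied to a tissue or condition: COX4I2 of lung, COX6A2 and COX7A1 of muscle, and COX6B2, COX7B2 and COX8C of testis. None was called in any comparison. They differed by -0.12 to 0.00 between selected and parental cells and by -0.33 to 0.04 between selected and stable cells. COX6B2, COX7A1 and COX8C averaged 5.84, 6.31 and 6.35 over all arrays, beside olfactory receptor means of 6.34 to 6.50 by group. COX4I2, COX7B2 and COX6A2 averaged 7.43, 7.83 and 8.66. Rows at such low signal may read background alone, which was not tested, so the absence of calls there says little. Of their partners COX6A1 was called between selected and stable cells, as above, and COX4I1, COX6B1, COX7A2, COX7B and COX8A were called in no comparison. COX7A2L, which is not one of these partners, was not called either. COX8A was 11.52 to 11.71 in selected and 11.31 to 11.58 in parental arrays (0.20 ± 0.08, adjusted p = 0.15). COX7B2 was 7.55 to 7.84 in selected arrays, while stable R3 and R5 were at 8.77 and 8.28 and the other stable arrays at 7.67 to 7.78, against 7.39 to 8.10 in parental cells.

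In complex V, ATP5MG had the largest called difference of the 80 genes from parental cells. It encodes subunit g, a small membrane subunit that helps join ATP synthase dimers. Its signal was 11.44, 11.56, 11.57, 11.82 and 11.69 in selected R1 to R7, 11.26, 11.18, 11.16, 11.28 and 11.07 in stable R1 to R7, and 11.25, 11.12, 10.95 and 11.19 in parental cells. Selected arrays lay above all others, and stable and parental arrays overlapped. ATP5MG rose by 0.49 ± 0.09 against parental cells (1.40-fold, adjusted p = 0.010), and this call held in all 18 other settings. It was higher by 0.43 ± 0.08 than in stable cells (1.35-fold, adjusted p = 0.026).

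Other membrane and stalk subunits differed less. ATP5MJ differed by 0.26 ± 0.10 between selected and parental cells (adjusted p = 0.13), and the stalk subunit ATP5PF by 0.25 ± 0.07 between selected and stable cells (adjusted p = 0.089). The 4 genes of the F1 head, which holds the catalytic sites, differed by 0.15 to 0.26 between selected and stable cells with none called. Among them ATP5F1C differed by 0.26 ± 0.09 (adjusted p = 0.17), and ATP5F1B was at 13.39 to 13.49 in selected arrays, against 13.19 to 13.39 in stable ones, just without overlap (0.17 ± 0.06, adjusted p = 0.18). ATP5F1A and ATP5F1D differed from parental cells by -0.18 ± 0.08 and -0.19 ± 0.14 in stable cells (adjusted p = 0.83 and 0.997). The 3 genes of the c-ring, ATP5MC1, ATP5MC2 and ATP5MC3, which encode one and the same mature protein, lay between -0.12 and 0.09 between selected and stable cells. The inhibitor gene ATP5IF1 was 8.39 to 8.45 in selected arrays, against 8.46 to 8.55 in stable ones, without overlap, at a difference of -0.07 ± 0.05 (adjusted p = 0.61).

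Arrays of the groups did not overlap for more genes than were called. Selected lay wholly above parental for 13 of 80 genes (16.25%) and wholly below for 2 (NDUFB1 and NDUFB8), beside 6.81% and 2.96% of all genes. Selected lay wholly above stable for 9 (11.25%) and wholly below for 2 (NDUFB1 and ATP5IF1), beside 2.83% and 1.33%. Stable lay wholly above parental for NDUFA12 alone and below for none, beside 0.826% and 1.42%. These shares of all genes include genes of low signal, while 72 of the 80 lie above the 40th percentile.

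The genes of each complex were also averaged by array and set against the parental mean. Complex II stood 0.27 ± 0.04 above the parental mean in selected and 0.11 ± 0.05 above it in stable cells (SD, n = 5 each), where the parental arrays spread by 0.06 (n = 4). This mean covers SDHA, SDHC and SDHD alone, as SDHB was not among the 80 genes. SDHC differed by only 0.06 between selected and parental cells. The kept rows of SDHC and SDHD stood among genes of other chromosomes, as given above. Complex III stood at 0.13 ± 0.04 in selected and -0.08 ± 0.06 in stable cells, with a parental spread of 0.08. Complex IV was at 0.05 ± 0.02 in selected and -0.04 ± 0.04 in stable cells. For these complexes the selected and stable arrays did not overlap. For complex IV the lowest selected array was at 0.028 and the highest stable array at 0.022. The selected arrays of complexes III and IV overlapped parental arrays, and those of complex II did not. For scale, genes above the 40th percentile of mean signal stood at 0.05 ± 0.06 in selected and -0.01 ± 0.07 in stable cells.

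Complexes I and V overlapped between all groups. Complex I was at 0.05 ± 0.05 in selected and -0.04 ± 0.09 in stable cells, and after quantile normalisation its selected mean turned to -0.01. Complex V was at 0.08 ± 0.06 in selected and -0.04 ± 0.06 in stable cells, and its selected mean came to 0.02 after that step. The selected means of complexes III and IV became 0.08 and 0.02 with it, and that of complex II 0.20. These means over chosen genes carry no test.

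**Figure D3:**
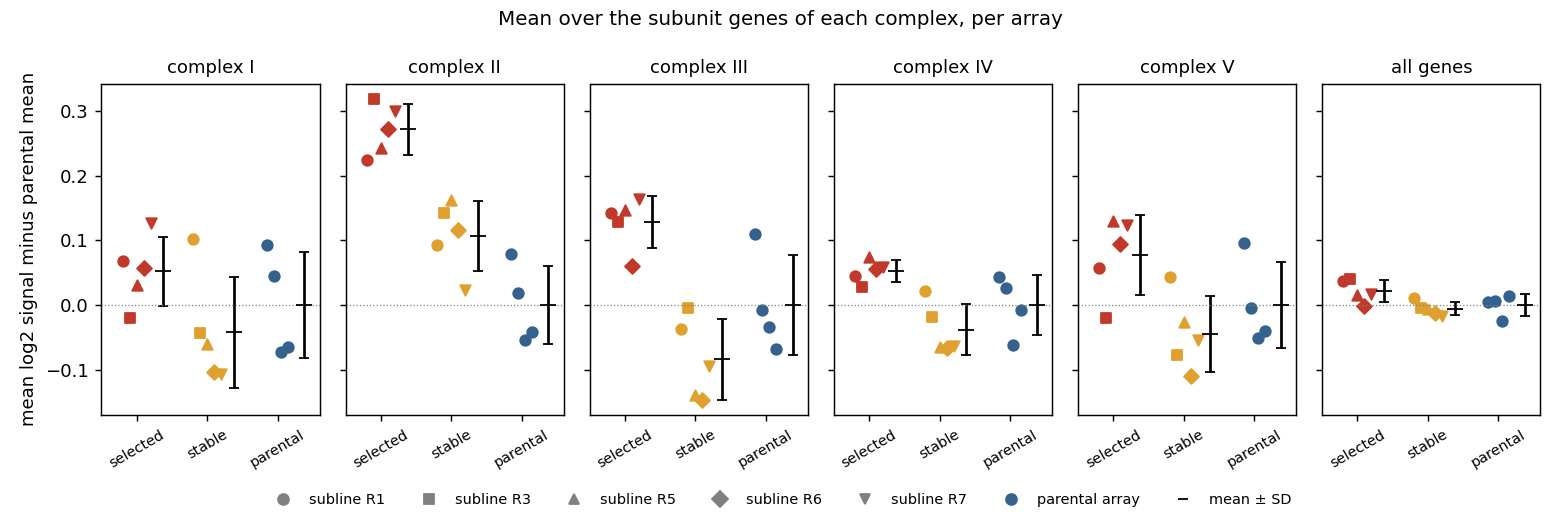
Mean log2 signal of the subunit genes of each complex, minus the parental mean, in every selected, stable and parental array. Points are arrays (marker shapes give the subline) and black bars are group means ± SD. Complex II, a mean of 3 genes, is highest in selected cells, at 0.22 to 0.32. Selected arrays of complexes III and IV overlap parental arrays, and complexes I and V overlap between all groups.

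Within sublines, the selected array was compared with the stable array of the same subline. Complex III was higher in selected cells in 5 of 5 sublines, by 0.18, 0.13, 0.29, 0.21 and 0.26 in R1, R3, R5, R6 and R7. Complex II was higher by 0.13, 0.18, 0.08, 0.16 and 0.28, complex IV by 0.02, 0.05, 0.14, 0.12 and 0.12, and complex V by 0.01, 0.06, 0.16, 0.20 and 0.18. Complex I was lower by 0.03 in R1 and higher by 0.02, 0.09, 0.16 and 0.23 in R3, R5, R6 and R7. The gaps of complexes I, IV and V were thus small in R1 and R3 and wider in the other sublines. In R7, genes above the 40th percentile of mean signal were also higher in selected cells, by 0.15, against 0.03 to 0.04 in the other sublines.

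Gene by gene, 26 of 80 (32.5%) were higher in selected than in stable cells in all 5 sublines, beside 11.8% of all genes. They include 9 of complex I, both called genes of complex II, 3 of complex III, 5 of complex IV and 7 of complex V. With rows among genes of their own chromosome the count was 24, as the other rows of NDUFV2 and SDHD were lower in selected cells in 3 and 2 of the 5 sublines. Lower in all 5 were 4 genes, NDUFB1, NDUFB8, ATP5IF1 and NDUFV1-DT, beside 7.35% of all genes. Both shares of all genes include genes of low signal and are not matched to the 80. ATP5MG was higher by 0.18, 0.38, 0.41, 0.55 and 0.62, in the order R1 to R7. NDUFS3 was higher by 0.37 to 0.61.

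**Figure D4:**
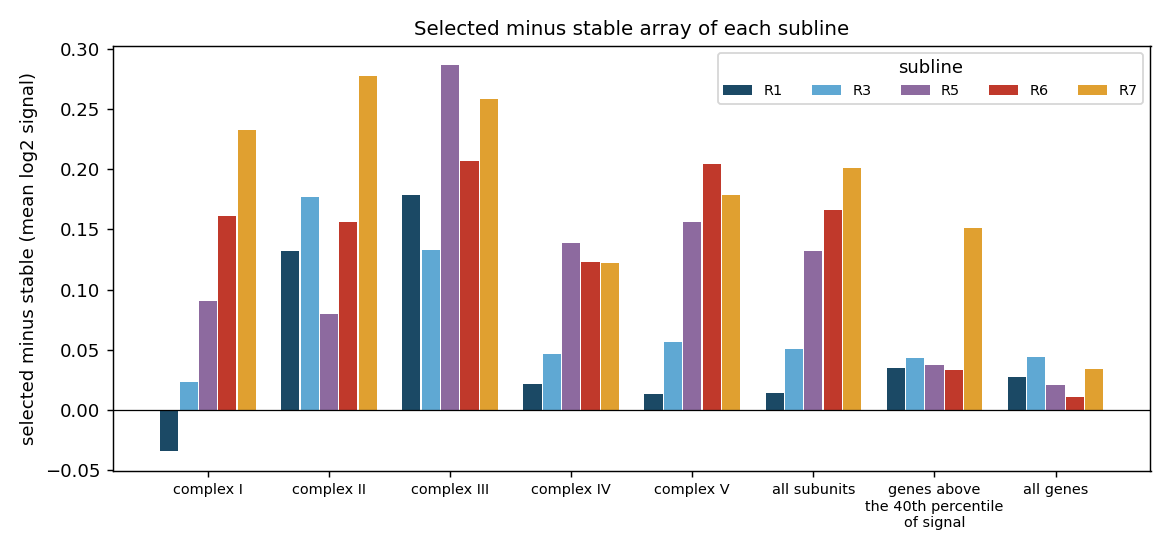
Selected minus stable difference in mean log2 signal of each complex, one bar per subline R1, R3, R5, R6 and R7. Complexes II to V are above 0 in all 5 sublines, while complex I is at -0.03 in R1.

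The sublines themselves were also compared. In simulated data this test recovered 0% of changes of 0.3, 6% of 0.5 and 100% of 1, on the log2 scale. The absence of a call therefore does not show that the sublines were alike. None of the 80 was called by limma's F test over the 5 sublines with growth condition in the model, beside 0.12% of all genes, and 6 (7.5%) had an unadjusted p under 0.05, beside 2914 of 18398 genes (15.8%). The widest range over sublines was that of COX7B, a small complex IV subunit, which was 10.33 in selected R1 and 10.28 in stable R1. Its other arrays were at 9.49, 9.99, 9.62 and 10.28 in selected R3 to R7, 9.31 to 9.46 in stable R3 to R7 and 9.22 to 9.88 in parental cells. Its subline means spanned 0.84 (adjusted p = 0.23). Both R1 arrays were high, and so was selected R7.

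NDUFA3, an accessory subunit of complex I, spanned 0.75 over the sublines (adjusted p = 0.14) with subline means of 0.14 in R1, -0.61 in R3 and -0.49 in R5 relative to parental cells. It was called with a trended and robust variance (adjusted p = 0.023). NDUFS4, an accessory subunit, spanned 0.67, with stable R1 and R3 at 9.43 and 9.76 and the other stable arrays at 8.57 to 8.72. In complex V the widest ranges were those of ATP5F1D (0.43) and ATP5PO (0.37), in complex III UQCRB (0.40) and UQCR11 (0.36), and in complex II SDHA (0.23) and SDHD (0.22).

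Of the 80 genes, 7 lie on chromosome 11, and 3 of these rose against parental cells (NDUFS3, SDHD and ATP5MG). Of all chromosome 11 genes, 6.25% were called in either direction. The kept row of SDHD stood among genes of chromosome 1, as given above. No other chromosome held more than 1 called subunit gene in that comparison.

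Among genes that feed electrons to the chain, some had larger differences than any subunit called. Of 22 genes of the tricarboxylic acid cycle and pyruvate entry, 6 rose in selected against parental cells and none fell. This is 27.3%, beside 6.92% of all genes and 9.99% of genes above the 40th percentile of mean signal. This list and those below were chosen with earlier results of these data known, so their shares carry no test. MPC1 and MPC2, which carry pyruvate into the mitochondrion, rose by 0.72 ± 0.09 and 0.68 ± 0.11 (adjusted p = 0.0019 and 0.0049). IDH3A, of the NAD-dependent isocitrate dehydrogenase, rose by 0.60 ± 0.09 (adjusted p = 0.0043), and PDHX, of the pyruvate dehydrogenase complex, by 0.35 ± 0.08 (adjusted p = 0.025).

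Between selected and stable cells 4 of the 22 (18.2%) were higher and none lower, beside 2.16% of all genes and 3.19% above that percentile called. They were IDH3A (0.58 ± 0.08), MPC1 (0.69 ± 0.11), PDK3, a kinase that inhibits pyruvate dehydrogenase (0.62 ± 0.11), and DLST of the oxoglutarate dehydrogenase (0.32 ± 0.07). With the subline block 6 were higher, as IDH2, SUCLG1 and MPC2 were called and DLST was not, beside 4.92% of all genes called. The median difference of the 22 genes was 0.26 from parental and 0.29 from stable cells, and 0.20 and 0.21 after quantile normalisation, where the 80 genes had 0.06 and 0.11 as deposited and 0.0044 and 0.07 after that step.

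Of 10 genes for cytochrome c and other electron donors, 2 rose against parental cells, where 6.92% of all genes were called. ETFDH, which passes electrons from fatty acid oxidation to ubiquinone, was at 7.78 ± 0.16 in selected and 6.99 ± 0.14 in parental cells, a rise of 0.79 ± 0.10 (1.73-fold, adjusted p = 0.0014). It was higher by 0.81 ± 0.12 than in stable cells (adjusted p = 0.011), the only one of the 10 called there, and ETFA was called too with the subline block (0.37, adjusted p = 0.044). HCCS, which attaches heme to cytochrome c, rose by 0.45 ± 0.12 against parental cells (adjusted p = 0.048).

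Assembly factors moved in both directions. Of all genes, 6.92% were called between selected and parental cells and 2.16% between selected and stable cells. For complex I, NDUFAF5 rose by 0.48 ± 0.11 and NDUFAF3 was lower by -0.42 ± 0.09 in selected against parental cells (adjusted p = 0.027 and 0.019), out of 15 genes. NDUFAF3 was also lower than in stable cells (-0.63 ± 0.11, adjusted p = 0.018), where NDUFAF5 was called higher with the subline block alone (0.42, adjusted p = 0.034). For complex IV, 3 of 20 rose, among them COA6 (0.52 ± 0.11) and COX18 (0.45 ± 0.10), and 2 were lower, COX15 (-0.46 ± 0.11) and COA3 (-0.46 ± 0.12), against parental cells. HIGD2A was higher by 0.42 ± 0.09 than in stable cells (adjusted p = 0.034), the only one of the 20, and with the subline block 3 were higher and 1 lower.

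For complex III, 1 of 6 assembly genes rose against parental cells, TTC19 (0.33 ± 0.09), and 1 was lower than in stable cells, UQCC2 (-0.57 ± 0.11). With the subline block TTC19 was also called higher than in stable cells (0.49, adjusted p = 0.031). For complex II, SDHAF3 was higher than in stable cells (0.29 ± 0.07, adjusted p = 0.048), out of 3, a call not made with the subline block. None of 6 assembly and regulatory genes of complex V was called.

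The lists for supply and upkeep of mitochondria showed few calls, beside 6.92% of all genes against parental and 2.16% against stable cells. None of 16 regulators of mitochondrial biogenesis was called by limma in any comparison of groups, with 1, 0 and 0 at an unadjusted p under 0.05. Of 17 genes of glycolysis and lactate, PFKP rose by 0.37 ± 0.09 and HK2 was lower by -0.40 ± 0.11 in selected against parental cells, and none was called between selected and stable cells, by limma without the block, where 6 had an unadjusted p under 0.05. With the block GPI was called higher (0.36, adjusted p = 0.041). Of 20 genes for fusion, fission and import, TOMM22, a receptor of the outer membrane translocase, was lower by -0.73 ± 0.10 than in parental and by -0.46 ± 0.10 than in stable cells (adjusted p = 0.0024 and 0.035), and MFF was called higher than in stable cells with the block alone (0.44, adjusted p = 0.047). No gene of these lists was called between stable and parental cells.

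**Figure D5:**
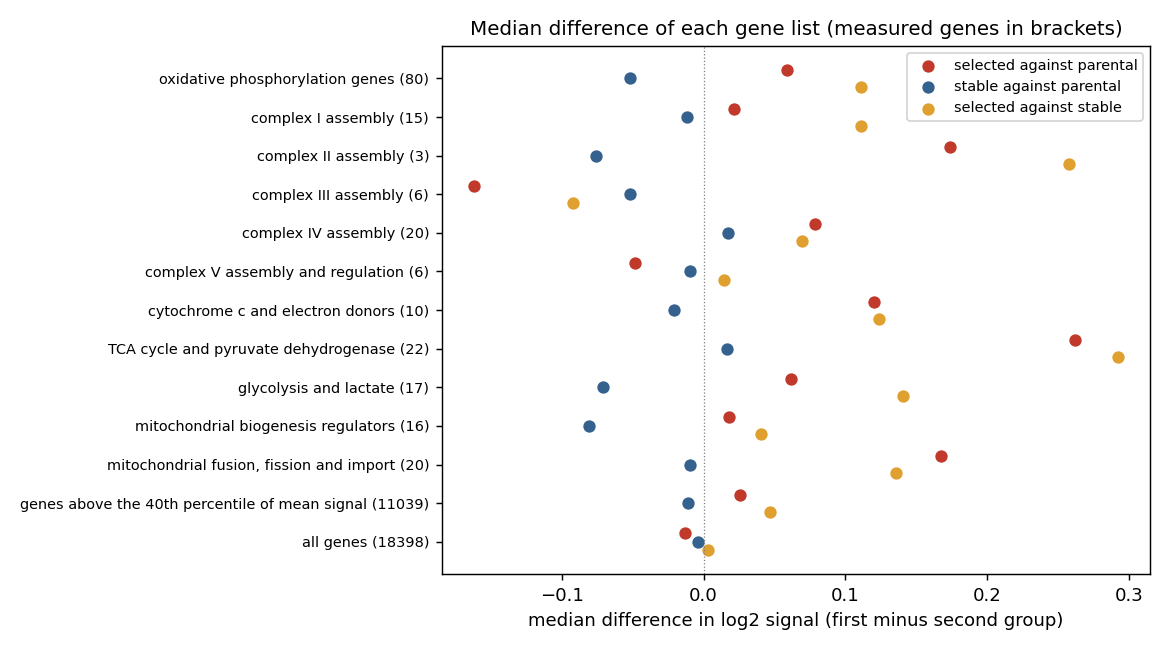
Median difference in log2 signal over each list of genes, for selected against parental, stable against parental and selected against stable cells, with all genes for scale. Genes of the tricarboxylic acid cycle stand at 0.26 and 0.29 in the comparisons of selected cells, and the oxidative phosphorylation genes at 0.06 and 0.11, on the deposited scale.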

How the data were processed

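RNA of 14 cell pellets was labelled and hybridised to Affymetrix whole-transcript arrays, per the labels' protocols. The deposited table holds 1 log2 value per row and array; how the authors corrected background and normalized is not given in the sources used here. Base 2 is read from the span of the values, 4.34 to 14.9. No further normalization was applied. Of 32295 rows, 19148 named 1 gene, 1376 several and 11771 none in the platform annotation, and 19118 of the first matched RefSeq by gene ID. The highest-mean row stood for each of 18398 genes; 9 rows naming an oxidative phosphorylation gene beside another gene were not used, nor were 2 pseudogenes. The number of arrays limits the precision.

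Each pair of groups had its own two-sided limma fit (version 3.58.1 under R 4.3.3, eBayes defaults). Adjusted p-values are Benjamini-Hochberg values across the 18398 genes, called under 0.05. Sublines were compared by the F test with growth condition in the model. The procedure was tested on simulated data. The members and gene lists were chosen with earlier results of these data known. Genes were named by a rule on calls, smallest p per complex, isoforms, subline ranges and outlying arrays; its clause on highest and lowest levels was not used, as rows read by different probes cannot be compared. Selected and stable arrays are paired by subline, per the labels. Over all genes, deviations of paired arrays from their group means correlated at 0.64, 0.05, 0.37, 0.55 and -0.47 in R1, R3, R5, R6 and R7. The other settings tried were the row kept, a filter at the 40th percentile, normalization, variance and array weights, the olfactory receptor mean as a covariate, the subline block and leaving out arrays.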

Additional observations from a re-analysis of the deposited data

Results flagged for a closer look

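Dixon's test was run on each of the 80 genes in the groups of 4 or 5 arrays, and 17 of 255 groups, counting the means of the complexes, had 1 array set apart. Chance alone flags about 1 in 20 groups. Of the 17, 5 were in selected, 9 in stable and 3 in parental cells, with 4 in stable R1 and 3 in stable R3.

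Among selected arrays, R3 was low for NDUFB1 (8.2235, others 8.5223 to 8.6025) and for ATP5MJ (10.337, others 10.6145 to 10.7019). R1 was low for NDUFB2 (9.4073, others 9.6502 to 9.7427) and high for COX6B1 (12.2523, others 11.9295 to 11.9886). R6 was low for COX4I1 (9.8618, others 10.0556 to 10.1282).

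Among stable arrays, R1 was high for 4 genes: COX6B1 (12.2094, others 11.7882 to 11.8853), COX7B (10.2766, others 9.3109 to 9.4611), COX7C (10.4643, others 10.0125 to 10.1404) and ATP5PF (9.8403, others 9.7132 to 9.7254). COX6B1 was thus set apart in both R1 arrays. R3 was low for NDUFB2 (9.1632, others 9.4421 to 9.5227), COX6A2 (8.327, others 8.628 to 8.7346) and ATP5PO (10.5677, others 10.9751 to 11.0366). R6 was low for NDUFS7 (8.3565, others 8.6792 to 8.7385) and R7 for SDHA (10.1707, others 10.3289 to 10.371).

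Among parental arrays, replicate 3 was low for NDUFB7 (9.2994, others 9.502 to 9.535), replicate 1 high for NDUFV2 (11.4946, others 11.2693 to 11.2998) and replicate 2 low for COX8C (6.2344, others 6.4147 to 6.4509).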

How the results depend on the processing

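Called genes among the 80 are given with calls over all 18398 genes in brackets. Selected against parental, 6 (1273), became 10 (2320) with the olfactory receptor covariate, 8 higher and 2 lower. Leaving out 1 array, this was 2 to 6 (517 to 1343), at 2 without parental replicate 4 and 3 without selected R3, R5 or R7. Stable against parental stayed at 0 in all 18 settings (1 to 286). Selected against stable, 4 (397), became 17 (1480) with array weights, 8 (680) in 1 fit of 14 arrays and 0 to 11 (86 to 962) leaving out 1 array. Paired by subline as a replicate block it was 6 (906), and 5 (791) with quantile normalisation added. It was 0 with the olfactory receptor mean added, where no gene of 18398 was called. Without both R7 arrays it was 0 (0), and 1 (159) with the block. Among the 80 genes the block changed no call but NDUFAB1 and SDHA. Over all genes, 397 calls became 906 with the block. Between sublines, 0 (22) became 1 (584) with trended, robust variance, 3 (1389) with array weights and 0 to 1 (0 to 410) leaving out 1 array.

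Mean shifts of complexes from parental in selected cells after quantile normalisation were -0.014 (I), 0.20 (II), 0.081 (III) and 0.016 (IV). The median over genes gave 0.33 (II) and 0.074 (IV), and genes above the 40th percentile 0.078 (III) and 0.086 (IV). Leaving out 1 array, complex IV ran from 0.032 to 0.067. Selected minus stable, it gave 0.024, 0.098, 0.16, 0.050 and 0.060 (I to V), against 0.12 for complex V without it. For complex IV median centring gave 0.057, the median over genes 0.042 and genes above the 40th percentile 0.12. The other complex means moved by less than 1 SD, though that of complex V in selected cells came to 0.016 with quantile normalisation, and the stable means of I and V, -0.043 and -0.045, to -0.011 and -0.013 leaving out 1 array, and no called gene changed sign. The causes were not tested. Chosen after seeing the data were the settings without R7 with the block, the block with quantile normalisation, and the other rows of genes with several.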
